A study of Rattus norvegicus with 421 samples.

Results

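The early liver response of rats to ethionine was taken as the 6 arrays of the groups titled ETH_1d and ETH_3d and the 8 arrays of their vehicle groups, CMC_1H_1d and CMC_1H_3d, 14 of the 421 arrays of the series, each from the liver of a different animal. Male Wistar Hanover rats of the stock Crl:WI[Gl/BRL/Han]IGS BR, 8 to 10 weeks of age, received ethionine by gavage at 200 mg/kg daily for 1 day or for 3 days, and the vehicle rats received carboxymethylcellulose alone. Livers were removed 1 day after the last dose. The ETH groups held 3 animals a day and the vehicle groups 4 a day. The series' design text states that 3 of the 5 animals dosed in a treatment group were chosen for profiling on histopathology. Both the size of the changes and the spread among the ETH arrays are thus those of chosen animals. RNA was measured on Affymetrix RAE230A arrays as a log2 intensity per probe set. The comparisons asked what ethionine changed on day 1, what it changed on day 3, and how the response moved between the days.

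Ethionine is the ethyl analogue of methionine. The liver converts it to S-adenosylethionine, which ties up adenosine, so ATP falls and methylation reactions that use S-adenosylmethionine are disturbed. It has long been used to provoke fatty liver and, with long feeding, liver tumours in rats. The gene groups described are interferon and p53 targets, lipid metabolism, methionine, methyl group and amino acid enzymes, protein folding and synthesis, bile acid and drug enzymes, and cell type markers.

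Array medians of the whole series lay between 7.38 and 7.49. The mean correlation of an array with the others of its group was 0.990 to 0.994 among vehicle arrays, 0.977 to 0.984 on ETH day 1 and 0.986 to 0.988 on ETH day 3, so the 3 animals of ETH day 1 differed most from one another. Changes are given throughout as the log2 difference, ETH minus the vehicle of the same day, ± its fitted standard error (SE), for 3 ETH against 4 vehicle animals. A gene was called where it moved at least 1.5-fold and its p-value, adjusted over all probe sets, was below 0.05. In these bulk samples fewer cells of a type and less RNA per cell cannot be told apart.

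On day 1, 1421 of 15866 probe sets (8.96%) were called, 725 of them higher, and on day 3, 2045 (12.9%), 1255 of them higher. Counted as genes with 1 probe set each, 5.39% of 10411 genes were higher and 4.55% lower on day 1, and 9.38% were higher and 5.8% lower on day 3. Of 15 hepatocyte markers, 4 were called lower on day 1 and 3 on day 3, and Alb, the gene of albumin, gave -0.06 ± 0.03 and 0.02 ± 0.03. The median change of all genes was 0.003 on day 1 and -0.021 on day 3. The days used different vehicle animals. The 384 genes called higher on both days made up 68.4% of the day 1 list and 39.3% of the day 3 list, and the 311 called lower on both days 65.6% and 51.5%. Only 6 genes were called in opposite directions, all lower on day 1 and higher on day 3: Eci1, Ech1, Hadhb and Vnn1 of fatty acid metabolism, the aldo-keto reductase Akr7a3, and Gde1, a phosphodiesterase named after its values were seen. Without array 2 of ETH day 1 the day 1 change was -0.17 for Hadhb, -0.69 for Vnn1, -0.36 for Akr7a3 and -0.50 for Gde1, none of them called, and -0.85 for Ech1, and the day 1 calls of Hadhb and Akr7a3 were also lost without array 4 of vehicle. The day 3 call of Hadhb was lost without vehicle array 1 or 3 or ETH array 3. The change between the days was called for 904 probe sets (5.7%), or 3.75% of genes higher and 2.52% lower on day 3 than on day 1. The vehicle animals of day 3 differed from those of day 1 in 36 probe sets. The count of 904 depends on the arrays that estimate the spread: it was 254 when only the 4 compared groups entered the fit, and 101 with the replicate number as a block in the same 4 groups, while the block in the fit over all arrays left 834.

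The largest rises on day 1 were those of interferon-stimulated genes. Type I interferon acts through JAK kinases and a transcription factor complex that holds IRF9 and binds the interferon-stimulated response element (ISRE) in the promoters of antiviral genes. On day 1, 23 of 25 measured members of the interferon list were higher and none lower, with a median change of 1.91, and on day 3 20 were higher, with a median of 1.29. Of the 10 largest rises of day 1 among called genes whose ETH arrays all lay above vehicle, 8 belonged to this list. Promoters of this list are shown because its members rose together and many hold the core of the ISRE. The letters GAAANNGAA were searched on both strands in the RefSeq promoter windows (build GRCr8, 250 bases before to 50 after the gene start), and they were chosen after the values of the members had been seen. Of the 21 members that had a window, 13 (61.9%) held a match, against 9.71% of all 33469 windows. Of those 8 genes, Rsad2, Ifit3, Irf7 and Oas1a held a match, whereas Mx2, Oasl, Mx1 and Usp18 had either no match or no window. The stretches around the matches of the 4 genes that held one follow, 5′ to 3′ on the strand of the gene, with each match in capitals. Rsad2 lies on the minus strand (chr6:48788228-48788296), as does Irf7 (chr1:205800053-205800121), while Ifit3 (chr1:241527253-241527325) and Oas1a (chr12:41330395-41330465) lie on the plus strand. The stretches of Ifit3 and Oas1a hold 2 matches each, which overlap in Oas1a, and in the other 3 the matches read on the opposite strand.
Rsad2: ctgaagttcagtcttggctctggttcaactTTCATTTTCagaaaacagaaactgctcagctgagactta
Ifit3: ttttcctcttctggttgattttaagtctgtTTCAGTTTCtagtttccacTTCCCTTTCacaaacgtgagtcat
Irf7: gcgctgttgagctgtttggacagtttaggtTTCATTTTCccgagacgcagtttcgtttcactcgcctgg
Oas1a: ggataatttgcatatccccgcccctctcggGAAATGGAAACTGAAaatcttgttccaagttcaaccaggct

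Rsad2 encodes viperin, an antiviral enzyme. Its log2 intensity was 7.79, 7.60, 7.61 and 7.93 in the vehicle animals of day 1 and 12.52, 13.12 and 12.56 in the ETH animals. On day 3 it was 7.54, 7.37, 8.00 and 7.56 in vehicle and 10.67, 11.26 and 12.83 in ETH animals. All ETH animals lay far above all vehicle animals on both days, and those of day 3 were spread more widely. The rise was 5.00 ± 0.28 on day 1 (adjusted p = 8.97e-46) and 3.97 ± 0.28 on day 3, with an SD of 1.12 among the ETH animals (adjusted p = 6.13e-33). Irf7, the transcription factor that amplifies interferon production, read 9.03, 8.80, 9.001 and 9.22 in vehicle and 12.86, 13.41 and 13.15 in ETH animals of day 1. On day 3 its intensity was 9.16, 9.15, 8.48 and 8.50 in vehicle and 11.70, 12.16 and 12.81 in ETH animals, again without overlap, and its rise was 4.13 ± 0.23 and then 3.40 ± 0.23. The same held for further antiviral effectors: on day 1 Ifit3 rose by 5.00, Mx2 by 4.39, Oasl by 3.89, Mx1 by 3.69 and Oas1a by 3.65. Usp18, the protease that removes the ubiquitin-like ISG15 and restrains interferon receptors, rose by 3.57. Of the signalling factors, Irf9 rose by 1.56 and Stat2 by 0.72 on day 1, and the change of Irf1 was 0.55 and was not called.

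The interferon response was smaller on day 3 for part of the list. The day 3 response was called smaller than that of day 1 for 11 of 25 members and larger for none, with a median change of -0.64. That count fell to 4 without array 2 of ETH day 1 and to 2 in the fit of the 4 groups alone, was 1 with the replicate block in those groups, and rose to 15 without array 3 of ETH day 3. Cxcl9, a chemokine of the interferon gamma type, read 8.20, 8.12, 8.39 and 8.54 in vehicle and 10.05, 11.51 and 10.45 in ETH animals of day 1. On day 3 it read 7.96, 8.18, 7.31 and 8.68 in vehicle and 8.66, 8.56 and 8.33 in ETH animals, and the groups overlapped. Its rise of 2.36 ± 0.29 was followed by a change of 0.48 ± 0.29 that was not called, and the difference of -1.87 ± 0.41 was called (adjusted p = 0.000235), though not in the fit of the 4 groups alone. Members of antigen processing follow. The immunoproteasome subunits Psmb9 and Psmb8 rose by 1.94 and 1.91 on day 1 and by 0.69 and 0.96 on day 3, where the call of Psmb9 was lost without array 3 of vehicle day 3 or array 1 or 2 of ETH day 3. The peptide transporter Tap1 rose by 1.67 and then 0.82. Mx1 gave 3.69 and 3.93, a difference of 0.24 ± 0.24 that was not called. Among 20 other treatment groups of day 1, Rsad2, Ifit3, Mx1 and Oasl were called higher in none, and among 27 of day 3 in 1, 1, 2 and 0. Each of these groups was set against its own vehicle, which for 2 of them on each day was the one used here.

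**Figure D1:**
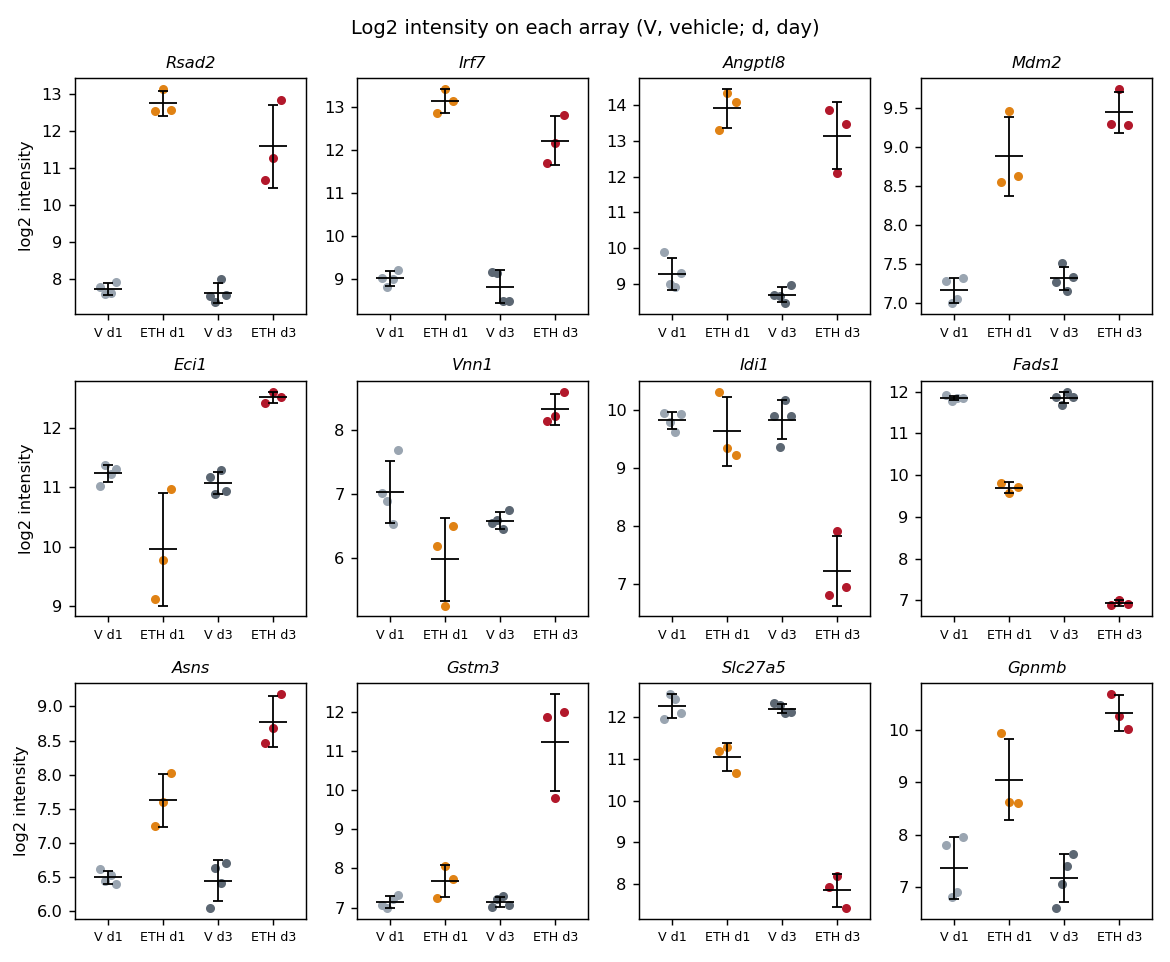
Log2 intensity (vertical axis) on each of the 14 arrays for 12 genes, with vehicle (V) and ETH groups of days 1 and 3 (d) along the horizontal axis; points are animals, and the bars give the mean and the SD of 4 vehicle or 3 ETH animals. Rsad2, Irf7 and Angptl8 were high on both days, Gstm3 on day 3, Eci1 and Vnn1 lay below vehicle on day 1 and above it on day 3, and Fads1 fell on day 1 and further on day 3.

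Targets of p53, which halts the cell cycle and directs repair after DNA damage, rose in part on both days. Of 15 measured members, 7 were higher and 1 lower on day 1 and again 7 and 1 on day 3, with medians of 0.40 and 0.55. The higher members were the same on both days. Mdm2, the ligase that marks p53 for degradation, read 7.28, 7.00, 7.06 and 7.33 in vehicle and 8.55, 9.47 and 8.63 in ETH animals on day 1, and 7.27, 7.51, 7.16 and 7.34 in vehicle and 9.31, 9.75 and 9.29 in ETH animals on day 3. The groups did not overlap on either day, and the rise was 1.72 ± 0.17 and 2.13 ± 0.17. Cdkn1a, the cyclin kinase inhibitor p21, read 8.38, 8.99, 9.08 and 9.06 in vehicle and 10.02, 12.42 and 11.37 in ETH animals of day 1, where the ETH animals spanned over 2 log2 units, and rose by 2.39 and 1.71 on the days. Ccng1 rose by 1.70 and 1.97, Plk2 by 1.5 and 1.80, and Phlda3, an inhibitor of Akt, by 1.59 and 1.66. Mgmt, the protein that takes alkyl groups off guanine, rose by 1.24 and 1.70. Gadd45a, also a stress gene of the amino acid response list, rose by 1.48 and 2.36, its day 1 call being lost without array 2. The member called lower was Sesn1 (-0.65 and -0.59), whose call was lost without vehicle array 1 or 4 or ETH array 2 or 3 on day 1 and without vehicle array 3 or ETH array 2 on day 3. Ddb2 and Xpc, which recognise DNA lesions, gave -0.14 and -0.53 on day 3 and were not called.

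Called genes of fatty acid oxidation were mostly lower on day 1 and mostly higher on day 3. PPARA is the nuclear receptor that senses fatty acids and drives their oxidation in mitochondria and peroxisomes. Of 37 measured members of its list, 12 were lower and 1 higher on day 1 (median -0.39), and 16 were higher and 3 lower on day 3 (median 0.34). The difference between the days was called higher for 20 members and lower for none, with a median of 0.82, and for 12 in the fit of the 4 groups alone, or 5 with the replicate block there. Eci1, an isomerase that feeds unsaturated fatty acids into mitochondrial oxidation, read 11.02, 11.37, 11.23 and 11.31 in vehicle and 9.11, 9.77 and 10.98 in ETH animals of day 1, all 3 below vehicle but far apart. On day 3 it read 11.18, 10.88, 11.29 and 10.94 in vehicle and 12.42, 12.61 and 12.53 in ETH animals, all above vehicle and close together. It thus fell by 1.28 and then rose by 1.45, and the difference was 2.73 ± 0.31 (adjusted p = 1.56e-13). Vnn1, a pantetheinase and PPARA target, read 7.01, 6.89, 6.53 and 7.69 in vehicle and 6.19, 5.25 and 6.49 in ETH animals on day 1, and 6.54, 6.59, 6.44 and 6.75 in vehicle and 8.15, 8.23 and 8.60 in ETH animals on day 3. Its change of -1.05 on day 1 was not called without array 2 of ETH day 1, its rise on day 3 was 1.75 ± 0.31, and the difference was 2.80 ± 0.43.

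Other oxidation enzymes followed one of 2 patterns. Those that fell and came back included Ehhadh, the peroxisomal bifunctional enzyme, with -1.89 on day 1 and an uncalled 0.24 on day 3, and Acaa2, the mitochondrial thiolase, with -1.004, not called in the fit of the 4 groups alone (adjusted p = 0.0758), and an uncalled -0.05. Ech1 fell by 1.29, or by 0.85 without array 2, and then rose by 1.14. Those called on day 3 alone included Cpt1a, the carnitine transferase that admits fatty acids to mitochondria, with 10.28, 10.07, 10.32 and 9.76 in vehicle and 11.42, 11.91 and 12.02 in ETH animals of day 3. Its change was -0.78 ± 0.33 on day 1, not called, and 1.67 ± 0.33 on day 3. Cyp4a1, the fatty acid omega-hydroxylase, gave an uncalled 0.41 on day 1 and 2.68 ± 0.21 on day 3. The thioesterases Acot1 and Acot2 rose by 1.70, or 1.08 without array 3, and 1.27 on day 3, Angptl4 by 1.60 and the lipid droplet coat gene Plin2 by 1.46. Still lower on day 3 were Etfdh (-0.97), Fabp1 (-0.91) and Decr2 (-0.79), a count that was 5 without array 2 of vehicle day 3. Pex11a was the member called higher on day 1 (0.60), not called without vehicle array 3 or ETH array 3, and Ppara itself gave -0.07 and -0.03, neither called.

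**Figure D2:**
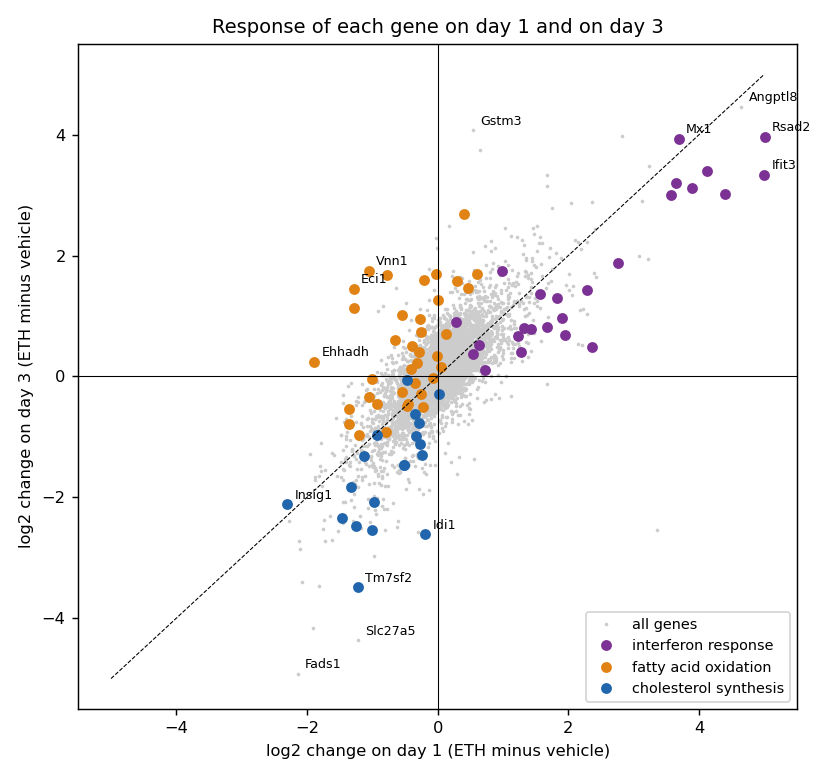
Log2 change on day 1 (horizontal axis) against that on day 3 (vertical axis), ETH minus vehicle, for 10411 genes as grey points, with 3 gene lists coloured and some genes named; the dashed line marks equal change on both days. Interferon members lie at the right, most below the dashed line, 33 of 37 fatty acid oxidation members lie above it, 20 with a called difference, and most cholesterol synthesis members lie below it, 9 of 19 with a called difference; across all genes Pearson's r was 0.744, a description over genes that share their arrays.

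Most called genes of lipid synthesis were lower on both days. Sterol synthesis is driven by SREBF2 and fatty acid synthesis by SREBF1, and INSIG1 holds both in the endoplasmic reticulum when sterols are plentiful. Of 19 measured cholesterol synthesis genes, 9 were lower on day 1 (median -0.52) and 17 on day 3 (median -1.46), and none was higher on either day. The fall was larger on day 3 for 9 members, and for 3 in the fit of the 4 groups alone, or 2 with the replicate block there. Mean changes of the list on the 3 arrays of ETH day 1 were -0.27, -1.13 and -0.93, so that array 1 fell least, and -1.68, -1.45 and -1.60 on those of day 3. Idi1, the isopentenyl isomerase, read 9.96, 9.79, 9.63 and 9.94 in vehicle and 10.33, 9.35 and 9.24 in ETH animals of day 1, with overlap, and 9.91, 9.37, 10.18 and 9.90 in vehicle and 6.81, 7.91 and 6.95 in ETH animals on day 3, where all ETH animals were lower. Its change was -0.19 ± 0.38, not called, and -2.62 ± 0.38, a difference of -2.43 ± 0.54 that was not called with the replicate block in the 4 groups. Tm7sf2, a sterol reductase, fell (-1.22 and -3.49), and on day 3 Cyp51 and Fdps fell too (-2.55 and -2.48). Insig1 had the largest fall of all genes whose ETH animals on day 1 all lay below vehicle, -2.30 ± 0.37, and gave -2.11 ± 0.37 on day 3. The sterol regulatory letters TCACNCCAC, also chosen after the values were seen, were in none of the 16 promoter windows of the list and in 1.12% of all windows.

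Among 24 fatty acid and triglyceride synthesis genes, 9 were lower and 2 higher on day 1, and 11 lower and 3 higher on day 3. The desaturases led. Fads1, which makes arachidonic acid from its precursor, read 11.91, 11.78, 11.84 and 11.84 in vehicle and 9.82, 9.56 and 9.72 in ETH animals of day 1, and 11.86, 11.68, 12.00 and 11.88 in vehicle and 6.89, 7.00 and 6.90 in ETH animals on day 3. Its change of -2.14 ± 0.18 deepened to -4.92 ± 0.18, 30.3-fold lower than vehicle, the largest fall of day 3 (adjusted p = 4.96e-76), and the SD among ETH animals was 0.13 and 0.06. Fads2 fell (-1.91 and -4.16). Scd, the stearoyl desaturase, read 13.36, 12.85, 13.21 and 12.56 in vehicle and 12.44, 11.05 and 9.27 in ETH animals of day 1, the last of which carried much of the day 1 change of -2.08, which was -1.25 and no longer called without it, and it fell by 3.40 on day 3. Fasn, the fatty acid synthase, fell on day 3 (-2.98), as did Srebf1 (-2.49), Thrsp (-2.41) and Acly (-2.17). Against this, Angptl8, the hormone-like inhibitor of lipoprotein lipase, read 9.89, 8.98, 8.90 and 9.29 in vehicle and 13.30, 14.34 and 14.10 in ETH animals of day 1 and 8.67, 8.65, 8.45 and 8.97 in vehicle and 13.87, 12.09 and 13.49 in ETH animals on day 3. It rose by 4.64 ± 0.46 and 4.46 ± 0.46, the largest rise of day 3, and was called in no other treatment group of day 1 or day 3. Agpat2 rose by 0.72 and 0.69.

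Enzymes of methionine, methyl groups and amino acid breakdown were more often lower than higher on both days. Of 24 methionine cycle and one-carbon genes, 7 were lower and 3 higher on day 1, and 6 lower and 3 higher on day 3. Among all genes, lower calls made up 4.55% on day 1 and 5.8% on day 3, and higher calls 5.39% and 9.38%. Mat2a, the form of methionine adenosyltransferase made outside the adult hepatocyte or when methyl donors run low, read 7.51, 7.53, 7.22 and 7.42 in vehicle and 8.61, 8.73 and 8.50 in ETH animals of day 1, and 7.58, 7.05, 7.43 and 7.52 in vehicle and 8.36, 9.52 and 9.002 in ETH animals on day 3. It rose by 1.19 ± 0.19 and 1.56 ± 0.19 without overlap of the groups, whereas Mat1a, the hepatocyte form, gave -0.28 and -0.10, not called. Gnmt, which consumes surplus S-adenosylmethionine, fell (-0.96 and -1.51, the former not called in the 4 groups alone and the latter -0.95 without array 3), and so did Cbs, the entry to transsulfuration (-0.89 and -1.50). Ahcy, which clears S-adenosylhomocysteine, gave -0.16 and -0.21 and was not called. Of 13 methyltransferases 5 were lower on each day: Inmt (-2.27 and -2.39), As3mt (-0.99 and -1.50), Gamt (-0.86 and -1.26), Tpmt (-1.09 and -1.16) and Pemt (-0.98 and -0.89, the latter not called without array 3). The RNA methyltransferase Nsun2 was the one called higher (1.08 and 1.31).

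Of 33 genes of amino acid catabolism and the urea cycle, 18 were lower and none higher on day 1 (median -0.64), and 16 were lower and 2 higher on day 3 (median -0.57). Ftcd, the last step of histidine breakdown, read 12.94, 13.002, 12.93 and 12.79 in vehicle and 10.10, 10.21 and 10.24 in ETH animals of day 3, with no overlap, and fell (-1.72 and -2.73). Sds, the serine dehydratase, fell (-1.89 and -1.72), as did the proline oxidase gene Prodh (-0.92 and -1.64) and the D-amino acid oxidase gene Dao, outside the list (-1.82 and -3.47). Urea cycle members parted: Otc fell (-1.18 and -2.32), Cps1 fell by 1.25 on day 1, or by 0.80 without array 2, and gave an uncalled -0.47 on day 3, Asl gave an uncalled -0.05 and then rose by 1.24, and Arg1 was not called (0.29 and 0.28). Tat and Glul were not called on either day.

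**Figure D3:**
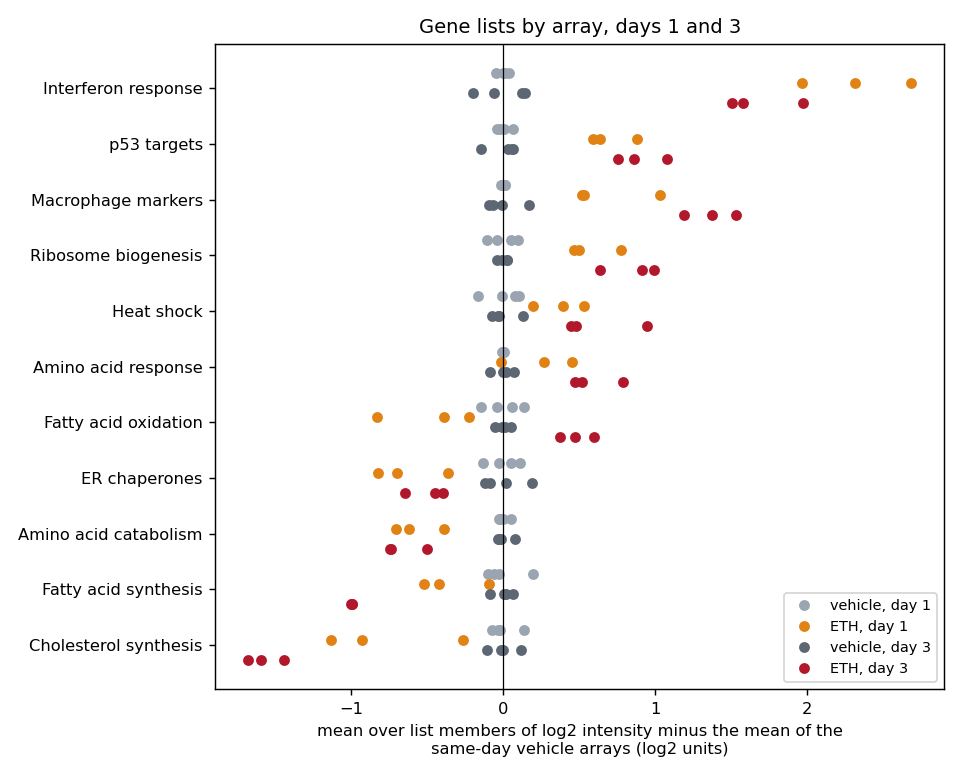
Mean over the measured members of 11 gene lists of the log2 intensity minus the mean of the same-day vehicle arrays (horizontal axis, log2 units), 1 point per array, with a row for each list on the vertical axis. Fatty acid oxidation lay below 0 on all 3 arrays of ETH day 1 and above 0 on all 3 of ETH day 3, interferon and p53 arrays lay to the right on both days, and cholesterol synthesis arrays to the left.

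Most called genes of the amino acid response were higher, and most called chaperones of the endoplasmic reticulum (ER) lower. Uncharged tRNA activates GCN2, and through ATF4 this raises amino acid synthesis and transport genes, while ER chaperones answer to unfolded proteins through ATF6 and XBP1. Of 33 amino acid response genes, 5 were higher and 1, Atf5, lower on day 1 (-1.15), and 12 were higher on day 3, with medians of 0.14 and 0.23. The day 1 count was 3 without array 2 and 9 without array 1 of ETH day 1. Asns, asparagine synthetase, read 6.62, 6.44, 6.53 and 6.39 in vehicle and 7.25, 7.61 and 8.02 in ETH animals of day 1 and 6.05, 6.63, 6.41 and 6.71 in vehicle and 8.46, 8.69 and 9.18 in ETH animals on day 3. It rose by 1.13 ± 0.19 and 2.33 ± 0.19 with no overlap on either day. Ddit3, the stress factor CHOP, rose by 1.03 and 2.45, Slc3a2, a chain of amino acid exchangers, by 0.88 and 2.12, and Trib3 by 1.75 on day 3. Most of the list was not called: Atf4 gave -0.19 and -0.47, Chac1 -0.06 and 0.11, and Fgf21 -0.08 and -0.07. The ATF4 composite letters TGATGNAAN were in 10 of 30 promoter windows of the list (33.3%) and in 3.97% of all windows, and of the members with a match Trib3 alone was called on day 3. The cAMP response letters TGACGTCA were in 1 window of the list (3.33%) and in 1.83% of all.

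ER chaperones were lower. Of 23 measured, 14 were lower on day 1 (median -0.74) and 9 on day 3 (median -0.46), where Xbp1 alone was higher (0.77). The ER stress response element, CCAAT and CCACG with 9 bases between them, was in 7 of 19 windows of the list (36.8%) and in 0.0657% of all windows. Calr and Creld2, called lower on both days, and Hspa5, called on neither, are shown of these 7. Of the other members with the element, Hsp90b1 and Canx were called lower on day 1 alone, Xbp1 higher on day 3 alone, and Dnajc3 on neither day. Calr (chr19:40213117-40213183), Creld2 (chr7:121789209-121789287) and Hspa5 (chr3:38452943-38453015) all lie on the plus strand of GRCr8, the element is in capitals, and in Calr and Creld2 it reads on the opposite strand.
Calr: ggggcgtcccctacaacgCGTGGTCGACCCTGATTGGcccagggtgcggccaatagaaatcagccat
Creld2: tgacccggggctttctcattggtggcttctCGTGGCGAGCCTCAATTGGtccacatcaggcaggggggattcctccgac
Hspa5: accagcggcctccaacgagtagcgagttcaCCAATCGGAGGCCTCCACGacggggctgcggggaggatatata

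Calr, calreticulin, a calcium-binding lectin chaperone, read 12.60, 12.74, 12.64 and 12.67 in vehicle and 11.67, 11.36 and 11.32 in ETH animals of day 1, and 12.78, 12.70, 12.88 and 12.58 in vehicle and 11.05, 11.15 and 11.08 in ETH animals on day 3. The groups did not overlap, and the changes were -1.21 ± 0.11 and -1.64 ± 0.11. Creld2 fell (-0.59 and -0.70), a call lost without vehicle array 1 or 3 or ETH array 1 or 3 on day 1 and without vehicle array 3 on day 3. Lower on both days were also Hyou1 (-1.15 and -1.03) and Sdf2l1 (-0.90 and -1.76). Hspa5, the major ER chaperone BiP, gave -0.53 ± 0.14 and -0.05 ± 0.14 and was called on neither day.

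Of 33 genes that make ribosomes, 11 were higher on day 1 and 23 on day 3, none was lower, and the medians were 0.45 and 0.82. Rrs1 rose by 1.46 and 2.45, Nop58, a core protein of small nucleolar particles, by 1.33 and 1.75, and the nucleolin gene Ncl by 0.88 and 1.15. Of 26 cytosolic ribosomal proteins, 6 were lower and none higher on day 1, and none was lower and 1 higher on day 3; the first count was 3 without array 2 of ETH day 1 and also after renewed quantile normalization. All genes gave 5.39% higher and 4.55% lower on day 1, and 9.38% higher and 5.8% lower on day 3. Of 25 translation factors, 2 were higher and 1 lower on day 1, and 11 higher on day 3, led by Eif1a (1.54) and Eif2s1, the subunit that GCN2 phosphorylates (1.43). Of 19 heat shock genes, 4 were higher on day 1 and 9 on day 3, and 3 without array 3 of ETH day 3. Hsph1 rose by 1.15 and 1.18 and Hspa4 by 1.39 on day 3, while Hspa1a gave 0.21 and 0.50 and was not called. The heat shock element (GAA, TTC and GAA with 2 bases between each) was in 5 of 15 windows of that list (33.3%) and in 0.798% of all. The windows of Hspd1 and Hspe1 overlap and hold the same matched bases, which were counted for each gene. Of the members with a match, Hsph1 was called higher on both days and Chordc1 on day 3, and Dnaja1, Hspd1 and Hspe1 on neither.

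Bile acid, drug and male-biased genes of the hepatocyte were more often lower than higher. Slc27a5, the ligase that activates bile acids, read 11.96, 12.55, 12.45 and 12.11 in vehicle and 11.19, 11.29 and 10.66 in ETH animals of day 1, and 12.33, 12.29, 12.10 and 12.11 in vehicle and 7.93, 8.18 and 7.42 in ETH animals on day 3. All ETH animals were lower on both days, with changes of -1.22 ± 0.24 and -4.36 ± 0.24, and the difference of -3.14 ± 0.33 was the largest drop between the days (adjusted p = 2e-15). Slc10a1, the bile acid uptake carrier, fell (-0.96 and -2.21), as did Abcb11, the export pump (-1.14 and -0.83). Cyp7a1, the rate-limiting enzyme of bile acid synthesis, read 10.08, 10.47, 10.18 and 9.41 in vehicle and 12.32, 10.76 and 12.09 in ETH animals of day 1. It rose by 1.69 ± 0.66 on day 1 and 1.54 ± 0.66 on day 3, and on each day the call was lost without any of 4 arrays: 1 or 4 of vehicle or 1 or 3 of ETH on day 1, and 1 or 2 of vehicle or 1 or 3 of ETH on day 3. In all, 7 of 21 bile acid genes were lower and 2 higher on each day, and the 2 higher on day 3 became none without array 1 of vehicle or array 1 of ETH. For this and the next lists, the share of all genes was 4.55% lower and 5.39% higher on day 1. On day 3 it was 5.8% lower and 9.38% higher. Of 29 further cytochrome P450 and drug enzymes, 10 were lower and none higher on day 1, and 13 lower and 1 higher, Cyp4b1, on day 3. Cyp2c7, of the female-biased list, gave an uncalled -0.30 and then fell by 2.58. Of 14 male-biased liver genes, 4 were lower on day 1 and 9 on day 3, among the latter Cyp2c13 (-1.49), Cyp2c11 (-0.74) and Cyp2a2 (-1.87). Of 14 female-biased genes, 2 were lower and 1 higher on day 1, and 4 lower and 2 higher on day 3. In the fit of the 4 groups alone the day 1 counts of lower genes were 2 in the male-biased and 1 in the female-biased list.

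Antioxidant genes split. Of 28 NRF2 targets, 3 were higher and 8 lower on day 1, and 6 higher and 9 lower on day 3. Gstm3, a glutathione transferase, read 7.07, 6.99, 7.21 and 7.33 in vehicle and 7.25, 8.07 and 7.73 in ETH animals of day 1, with overlap, and 7.01, 7.21, 7.30 and 7.07 in vehicle and 11.87, 9.80 and 12.00 in ETH animals on day 3, where all ETH animals were higher. Its change was 0.54 ± 0.25, not called, and then 4.08 ± 0.25, and the difference of 3.54 ± 0.35 was the largest rise between the days. It may share probes with related transferases. Aldh1a1 rose by 2.05 and 2.87 and Srxn1 by 1.44 and 1.96, whereas Oplah fell (-1.76 and -2.52), as did Gclm (-1.32 and -0.65, the latter not called without vehicle array 4), and Nqo1 gave -0.07 and 0.48, not called. The antioxidant core letters TGACNNNGC were in 37.5% of the 24 windows of the list and in 12.1% of all. Of the members with a match Gsta3 alone was called higher, on day 3. Abcc2, Gclm and Me1 were called lower on both days and Gsta1 on day 3, and the others were not called.

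Macrophage markers rose with these changes. Of 15 measured, 7 were higher and 1 lower on day 1, and 12 higher and 1 lower on day 3, with medians of 0.57 and 1.46. The list's mean relative to vehicle was 1.03, 0.52 and 0.53 on the arrays of ETH day 1 and 1.53, 1.38 and 1.19 on those of day 3, against -0.02 to 0.01 and -0.09 to 0.17 in vehicle. Gpnmb, a glycoprotein of lipid-laden macrophages, read 7.81, 6.81, 6.91 and 7.95 in vehicle and 9.94, 8.62 and 8.60 in ETH animals of day 1, and 6.61, 7.07, 7.403 and 7.64 in vehicle and 10.68, 10.27 and 10.02 in ETH animals on day 3. It rose by 1.68 ± 0.31 and 3.14 ± 0.31 without overlap. Clec4f, the lectin of Kupffer cells, rose by 1.32 and 2.17, Cd68 by 0.93 and 1.83, and the growth factor receptor Csf1r and complement gene C1qa by 1.46 and 1.65 on day 3, after uncalled 0.26 and 0.33 on day 1. Lyz2 rose by 2.06 and 1.34, Cd14 fell (-0.81 and -0.85) and Aif1 was not called. In the same array order the interferon means were 1.97, 2.69 and 2.32 on day 1 and 1.51, 1.58 and 1.97 on day 3. The part of macrophages in the other results was not tested. Of 17 neutrophil and lymphocyte markers 2 were higher on day 1 and 3 on day 3, of 27 stellate cell markers 1 and 2, of 17 bile duct markers 1 and 2, and of 13 endothelial markers 2 on each day. Over all genes 5.39% were higher on day 1 and 9.38% on day 3. None of 14 muscle and adipose genes was called, and of 12 pancreas genes Cela1 was lower (-0.81 and -2.54).

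Cell cycle genes were called in part. Of 19 cyclin D1 and growth control genes, 3 were higher and 1 lower on day 1, and 3 higher and 3 lower on day 3, where without array 2 of ETH 1 was lower. The shares of all genes were 5.39% higher and 4.55% lower on day 1, and 9.38% higher and 5.8% lower on day 3. Ccnd1, cyclin D1, rose by 0.95 and 1.14. None of 20 mitosis genes was called on day 1 and 6 were lower on day 3, a count that went to 0 without array 4 of vehicle day 3, whose list mean was 0.87 above its group while the ETH arrays lay at -0.47 to -0.41. Outside the lists, the histone gene H2ac25 read 5.41, 5.46, 5.49 and 5.37 in vehicle and 9.09, 9.83 and 8.59 in ETH animals of day 3 and rose by 3.74 ± 0.10, after 0.65 ± 0.10 on day 1, where the call was lost without array 2 and in the 4 groups alone. Histone genes share sequence, so other copies may contribute. Gadd45g rose by 2.82 ± 0.71 and 3.98 ± 0.71 with an SD of 1.39 and 2.03 among ETH animals, the day 1 call being lost in the 4 groups alone. Vxn read 6.09, 6.04, 6.21 and 6.16 in vehicle and 8.48, 9.76 and 9.82 in ETH animals of day 1, and its rise was 3.23 and 3.47. Further genes of the largest falls with no overlap were Inhbc (-2.13 and -2.72), a secreted inhibin chain, Slc6a13 (-2.10 and -2.86), a GABA and taurine carrier, and Anp32a (-1.96 and -1.28), and Ms4a6bl1 was among the largest rises of day 3 (3.33). Igfbp1, the insulin-repressed binding protein of IGF, gave -0.03 ± 0.53 and 2.29 ± 0.53, and the call of its difference was lost without array 2 of ETH day 1 or array 1 or 2 of ETH day 3.

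With longer dosing at 200 mg/kg some of these directions did not last. Set against its own vehicle, ETH gave 2.93% of genes higher on day 7 and 4.99% on day 14, with 3 ETH and 3 vehicle animals each. Of the 19 cholesterol synthesis genes, none of which was higher on days 1 and 3, 11 were higher on day 7 and 11 on day 14 and none was lower. The effect on day 7 minus that on day 3 was called higher for 18 of them, against 3.24% of all genes, and the same difference for day 14 for 18, against 3.25%. Idi1 went from -2.62 on day 3 to 1.68 ± 0.41 on day 7 and 2.40 ± 0.41 on day 14. Fads1 gave -0.28 and -0.64 on those days, and the differences from day 3 were 4.64 and 4.28. Of the interferon list 10 and 12 members were higher. Rsad2 was not called on either day (0.24 and 0.70), while Irf7 rose by 1.59 and 2.79 and Angptl8 by 2.97 and 4.63.

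**Figure D4:**
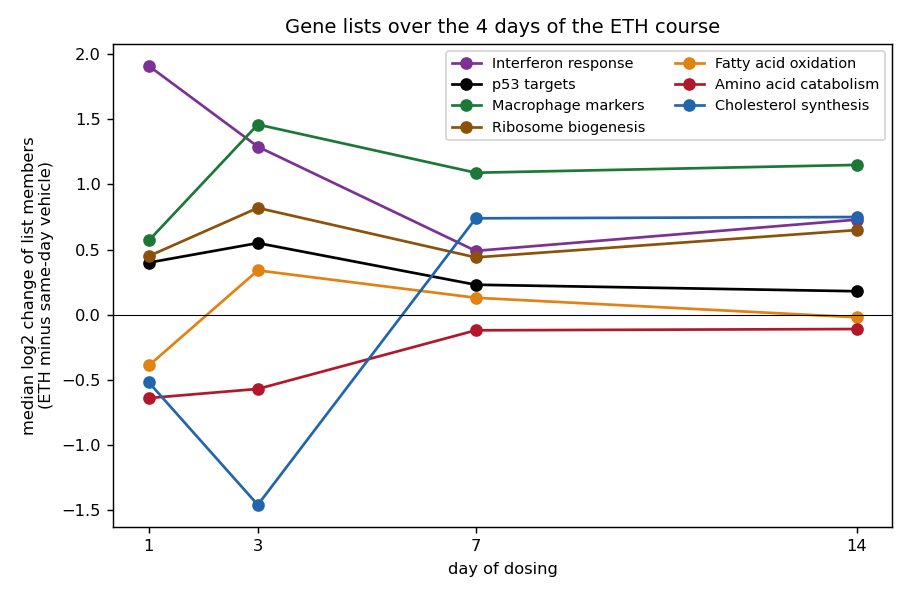
Median log2 change, ETH minus same-day vehicle (vertical axis), of the members of 7 gene lists on days 1, 3, 7 and 14 of dosing (horizontal axis). The cholesterol synthesis median was -0.52, -1.46, 0.74 and 0.75, and the interferon median fell from 1.91 on day 1 to 0.49 on day 7.

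Piperonyl butoxide (PBO) and diethylstilbestrol (DES) were run against the same vehicle arrays, with 3 animals each on each day except for DES on day 1, which had 2. Compared directly on day 1, Rsad2 was higher in ETH than in PBO by 5.19 ± 0.30 and than in DES by 5.21 ± 0.33, and Angptl8 by 4.64 ± 0.50 and 5.61 ± 0.55. Mdm2 was higher in ETH than in DES by 1.39 ± 0.21 on day 1, and the difference from PBO of 0.52 ± 0.18 was not called. Eci1 was lower in ETH than in both on day 1, with differences of -3.43 and -1.01. On day 3 it differed from PBO by -0.35 ± 0.24, not called, and was higher than in DES by 0.80 ± 0.24. Idi1 on day 3 was lower in ETH than in PBO, with a difference of -2.83, and the difference from DES of -0.68 ± 0.41 was not called.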

How the data were processed

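The authors ran 1 array per liver and deposited log2 values made with the robust multi-chip average (RMA, version not given in the sources used here), which corrects background, normalizes between arrays and summarises each probe set. The table held 15866 probe sets on 421 arrays. For arrays the number of animals, not a depth, limits the precision. Symbols came from the platform's probe table, updated by gene identifier: 12783 probe sets had 1 symbol, 312 several and 2771 were not listed. A gene was read from its brightest probe set (mean of all arrays), which left 10411 genes.

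Groups came from the labels. limma 3.58.1 (R 4.3.3) estimated a mean for each of the 136 groups from all 421 arrays (285 residual and 4.67 prior degrees of freedom), and p-values were adjusted over all probe sets (Benjamini-Hochberg). The SE rests on the spread within all groups and understates that of a gene whose ETH animals differ widely. The fit was tested on simulated data. The named genes were, on each day, the 10 largest rises and falls among called genes whose ETH arrays all lay beyond all vehicle arrays, the 10 largest in each direction for the change between the days, and any member of a list. Of 1209 entries in 46 gene lists, 973 were measured. The members and lists were chosen with earlier results of these data known. Lists are described by counts and medians, with no test. Promoter sequences are those of RefSeq.

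Replicate numbers are shared by ETH and vehicle arrays. Deviations of same-numbered arrays from their group means correlated at 0.443, 0.449 and 0.192 on day 1 and at -0.188, -0.171 and -0.0466 on day 3. Arrays of unlike number were not compared, so these values cannot show whether the numbers mark pairs on either day. The alternatives were the 4 groups alone, the ETH, PBO, DES and CMC_1H groups alone, renewed quantile normalization, a mean of at least 6, an intensity trend, robust moderation, the replicate block, other fold thresholds and the omission of each array.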

Additional observations from a re-analysis of the deposited data

Results flagged for a closer look

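Changes between day 1 and day 3 were tested as a difference of differences, and the 20 genes given here are the 10 largest called differences in each direction, so that they passed is no separate result. Higher on day 3 than on day 1, in log2 units, were Gstm3 (3.54), H2ac25 (3.09), Vnn1 (2.80), Eci1 (2.73), Cpt1a (2.45), Ech1 (2.42), Nceh1 (2.33), Igfbp1 (2.31), Cyp4a1 (2.28) and Ehhadh (2.14). Lower were Slc27a5 (-3.14), Fads1 (-2.78), Idi1 (-2.43), Cyp2c7 (-2.28), Tm7sf2 (-2.27), Fads2 (-2.26), Fasn (-2.0), Arrdc3 (-1.93), Mid1ip1 (-1.90) and Cxcl9 (-1.87). In the fit of the 4 groups alone 16 of the 20 were called, and 13 with the replicate block in those groups.

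Some vehicle arrays lay apart from the other 3 of their group. On day 1 these were the lowest value of Ehhadh (10.61) and the highest mean of the pancreas genes (0.10 above the group). On day 3 they were the highest values of Igfbp1 (10.38), Inmt (11.15) and Slc6a13 (11.34), the highest mean of the mitosis genes (0.87) and the lowest means of the purine nucleotide genes (-0.06) and p53 targets (-0.15). These were 8 of 174 values tested (4.6%), and chance flags about 1 in 20.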

How the results depend on the processing

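The counts of called probe sets rest on the threshold and, for the change between the days, on the arrays that estimate the spread. With at least 2-fold they were 474 on day 1, 770 on day 3 and 214 for the change, and with no fold threshold 4846, 6274 and 2200. For the change the count was 254 with only the 4 compared groups, 522 with only the ETH, PBO, DES and CMC_1H groups and 101 with the replicate block in the 4 groups; the block in the fit over all arrays, added after seeing the data, gave 1377, 2068 and 834. Under each of the other alternatives the 3 counts stayed within 1.5 times. Leaving out 1 array gave 1143 to 1889 on day 1, 1945 to 2232 on day 3 and 751 to 1313 for the change, the extremes of day 1 being without ETH arrays 2 and 1. With the replicate block in the 4 groups the share of higher calls for the change went from 62.3% to 46.5%, and renewed quantile normalization moved the share on day 3 from 61.4% to 56.2%. The causes were not tested. Sign changes of values called in neither fit were not counted. None of the genes of the largest changes reversed direction in a called change under the alternatives run. Among their calls, 13 were lost with only the 4 groups: those of Gadd45g, H2ac25 and Fasn on day 1 and of Ifit3, Mx2, Oasl, Dao, Ftcd, Igfbp1, Slc6a13, Arrdc3, Mid1ip1 and Cxcl9 for the change. The replicate block in the 4 groups lost 15: those of Gadd45g, H2ac25 and Vnn1 on day 1 and of Arrdc3, Cpt1a, Cxcl9, Dao, Fasn, Idi1, Ifit3, Igfbp1, Mid1ip1, Mx2, Oasl and Slc6a13 for the change. Counted with all list members, 32 of 250 calls on day 1, 19 of 358 on day 3 and 99 of 172 for the change were not made in the 4 groups alone. Both ETH groups held 3 animals chosen on histopathology, at 1 dose. A probe set has a floor and saturates, so large folds may be compressed.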

Other observations

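Counts for other groups follow, with the shares of all genes at the end. Of 21 lipoprotein and lipid transport genes, 0 were higher and 3 lower on day 1, and 3 higher and 9 lower on day 3. The 3 lower on day 1 became 5 without array 1 of ETH and with the replicate block in the 4 groups, and the 3 higher on day 3 became 1 without array 3 or 4 of vehicle and with the replicate block. Of 22 complement and coagulation proteins, 1 was higher and 3 lower on day 1, and 3 higher and 8 lower on day 3. Of 30 glycolysis and gluconeogenesis genes, 1 was higher and 8 lower on day 1, and 2 higher and 9 lower on day 3, and without array 2 of ETH day 1 2 were higher and 4 lower on that day.

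Of 28 immediate early and stress transcription genes, 6 were higher and 1 lower on day 1, and 6 higher and 1 lower on day 3. The 6 higher on day 1 became 2 without array 2 of ETH day 1, and the 6 of day 3 became 10 without array 3 of ETH day 3. Of 17 iron and haem genes, 3 were higher and 2 lower on day 1, and 5 higher and 1 lower on day 3, and without array 2 of ETH day 1 2 were higher and 1 lower on that day. Among them Hamp, the iron hormone hepcidin, rose by 1.45 and 1.90, its day 1 call being lost in the fit of the 4 groups alone.

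Of 17 purine and adenine nucleotide genes, 0 were higher and 0 lower on day 1, and 3 higher and 1 lower on day 3, and the 3 higher became 5 without array 1 or 2 of ETH day 3. Of 30 proteasome subunits, 3 were higher and 0 lower on day 1, and 3 higher and 0 lower on day 3, and the latter 3 became 5 without array 1 of ETH day 3. Of 24 DNA replication genes, 1 was higher and 0 lower on day 1, and 3 higher and 0 lower on day 3, and the latter 3 became 1 without array 3 of ETH day 3. Of 15 circadian clock genes, 1 was higher and 0 lower on day 1, and 2 higher and 0 lower on day 3. Over all genes 5.39% were higher and 4.55% lower on day 1, and 9.38% were higher and 5.8% lower on day 3.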
